A study of Vitis amurensis with 6 samples.

Results

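An array of neighbouring identifiers on chromosome field 02 of the grape gene set, proposed as thaumatin-like and osmotin genes, was followed in leaves of Vitis amurensis with and without a short chill. The array comprised 10 genes of 31845 listed, numbers g04230 to g04330 of scaffold field 0025, and its members were picked from these identifiers after a block of the array had been seen to be higher in cold on the same libraries. The values that chose the members are therefore the cold and control levels given here, which stand as a description. Where members are called in a fit across all genes, the calls are not used as support. The deposited table holds identifiers without gene names, so neither the protein family of the members nor the labelled tissue, by its marker genes, was checked here. The fields of an identifier are read as chromosome, scaffold and running number, without a genome to set them against.

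Thaumatin-like proteins are small plant proteins named after the sweet protein of katemfe fruit. Osmotin, first described in tobacco cells adapted to salt, belongs to the same family. They count among the pathogenesis-related proteins, many are secreted to the space outside the cell, and several slow the growth of fungi. Grape is well known for them because berries store them at ripening and they form haze in white wine. In winter rye, proteins of this family with antifreeze activity collect outside leaf cells during cold acclimation. Which of these roles, if any, belongs to a given member of the array is not known from the data used here.

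RNA was sequenced from leaves of wild-type, month-old plants of this cold-hardy wild grape, grown in vitro on an auxin-supplemented medium. Of 6 libraries, 3 came from untreated plants kept at 26 °C (control) and 3 from plants moved for 2 h to an incubator at 4 °C under constant light (cold); light was about 100 µmol per square metre and second for both. The hour of sampling is not in the labels, so the move to the incubator and the time of day cannot be told apart from the chill itself. The labels do not say whether replicate libraries stem from separate plants, so spreads and p-values cover only the variation between these libraries, which may be technical. Levels are FPKM, which scale reads by gene length and library total, so that genes of different length can be compared. Totals ran from 16437001 to 21217704 reads, each cold library being deeper than each control library, and whole reads could be worked back from the FPKM values. In leaf tissue, fewer cells with a transcript and less transcript per cell cannot be told apart.

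The array was close to silent at 26 °C apart from g04320. At 4 °C its 3 most abundant members stood above 75.5% or more of the genes read in every cold library. The summed level of the 10 genes was 10.1, 7.72 and 11.5 FPKM in control libraries 1, 2 and 3. It was 150, 382 and 101 FPKM in cold libraries 1, 2 and 3. The lowest cold library thus lay well above the highest control library, and cold library 2 stood far above the other two. The group means were 9.77 ± 1.90 FPKM (SD, n = 3) in control and 211 ± 151 FPKM (SD, n = 3) in cold, a ratio of 21.6. Without cold library 2 the cold mean was 125 FPKM and the ratio 12.8. In reads, the array held 87, 64 and 89 in the control libraries and 2218, 6282 and 1644 in the cold libraries.

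**Figure D1:**
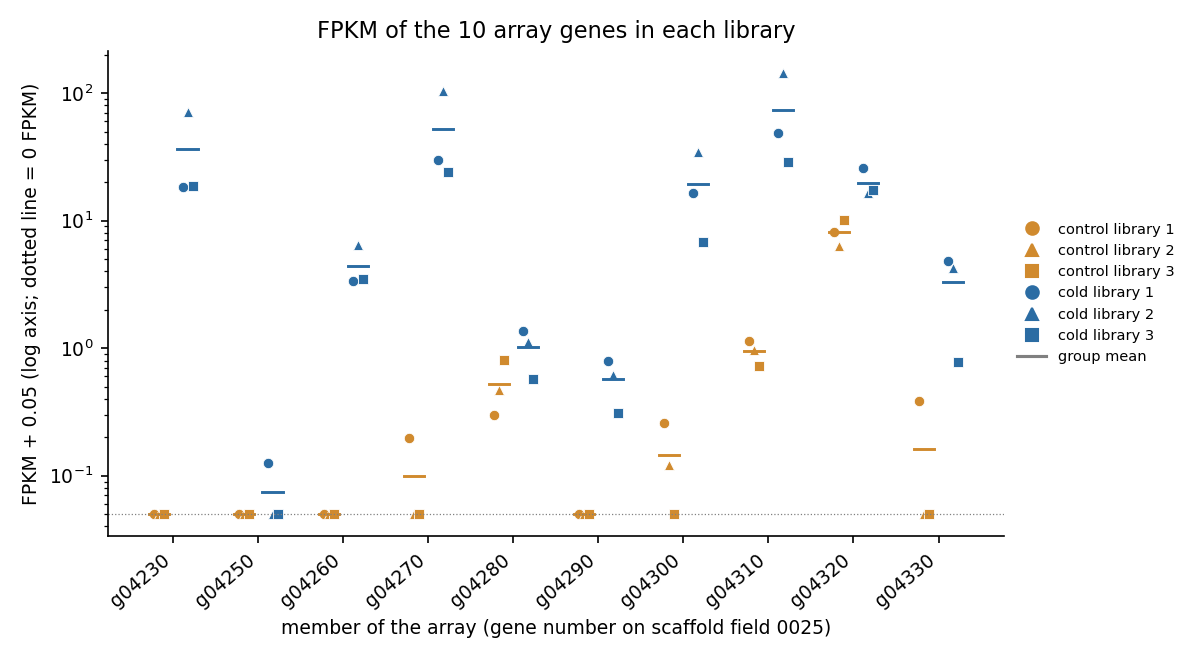
FPKM + 0.05 on a log axis for each of the 10 array genes (horizontal axis), with orange symbols for the 3 control libraries, blue symbols for the 3 cold libraries, a symbol shape for each library number and bars for group means; the dotted line is 0 FPKM. Control symbols lie at or near 0 for most genes, g04320 is the exception at 6.30 to 10.04 FPKM, and in 5 genes the triangle of cold library 2 is the highest point.

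In warm leaves, reads from the array were few and mostly those of g04320. No read was assigned to g04230, g04250, g04260 or g04290 in any control library. At these depths a count of 0 allows up to 0.260 FPKM for g04230, 0.284 FPKM for g04260 and 0.506 FPKM for g04290 in the shallowest control library, taking 3 reads as the limit. Control reads were 2, 0 and 0 for g04270, 3, 1 and 0 for g04300, and 5, 0 and 0 for g04330. All but 1 of these few reads came from control library 1. The members with reads in every control library were g04280, g04310 and g04320.

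The 3 most abundant members in cold were g04310, g04270 and g04230. VIT_202s0025g04310 stood at 1.10, 0.926 and 0.674 FPKM in the control libraries and at 48.9, 144 and 28.6 FPKM in the cold libraries. Its group means were 0.898 ± 0.212 and 73.9 ± 61.7 FPKM (SD, n = 3 each), and pooled reads gave a ratio of 81.1 (95% counting interval 60.3 to 112). Without cold library 2 the cold mean was 38.8 FPKM and this ratio 42.4 (counting interval 31.5 to 58.7). In cold library 2 it was the 576th of 22822 genes by FPKM, above 97.5% of the genes read there. In the control libraries it was above only 21.0% to 25.8% of the genes read. In each cold library it was above 83.3% or more of them.

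VIT_202s0025g04270 stood at 0.146, 0 and 0 FPKM in control and at 30.03, 103 and 24.0 FPKM in cold. With 2 control reads in all against 2540 in cold, the pooled ratio was 1061, with a counting interval from 293 to 8763; it was 548 (151 to 4534) without cold library 2, and both control reads were in control library 1. Its group means were 0.0486 ± 0.0842 and 52.5 ± 44.2 FPKM (SD, n = 3 each). Every cold level was far above every control level, and the interval is wide because there was so little to count in warm leaves.

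VIT_202s0025g04230, the first gene of the array, was at 0 in the 3 control libraries and at 18.3, 71.5 and 18.8 FPKM in cold. Its 241, 976 and 279 cold reads made it at least 416-fold higher than a floor of 3 reads set for all control libraries pooled, and without cold library 2 at least 215-fold. In the whole table, 12 genes had no control read and 30 or more reads in each cold library. Of these 12, g04230 had the highest mean level in cold, 36.2 ± 30.6 FPKM (SD, n = 3). VIT_202s0025g04260 was another of the 12, with 0 FPKM in control and 3.32, 6.40 and 3.45 FPKM in cold. It was at least 46.5-fold above the same pooled floor.

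VIT_202s0025g04300 stood at 0.211, 0.0712 and 0 FPKM in control and at 16.4, 34.5 and 6.73 FPKM in cold. Every cold library was above every control library, and pooled reads gave a ratio of 201 (counting interval 78.1 to 738), which was 120 without cold library 2. Only 4 control reads stand behind it, 3 of them in control library 1. The level in cold library 2 was 5.14 times that in cold library 3.

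VIT_202s0025g04320 had the highest level of the 10 genes in each control library. Its control levels were 8.10, 6.30 and 10.04 FPKM and its cold levels 25.7, 16.3 and 17.5 FPKM. The groups did not overlap, and the means of 8.15 ± 1.87 and 19.8 ± 5.09 FPKM (SD, n = 3 each) gave a ratio of 2.43. It was above 51.6% to 62.6% of the genes read in the control libraries. Its highest cold level was in library 1, and cold library 2 was the lowest of the cold libraries for it.

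The remaining members stayed low. VIT_202s0025g04330, the last gene of the array, stood at 0.334, 0 and 0 FPKM in control and at 4.74, 4.23 and 0.734 FPKM in cold, with 80, 74 and 14 reads. Pooled reads gave g04330 a ratio of 28.1 (counting interval 11.8 to 87.5), with 5 control reads behind it. Its level in cold library 3 lay much nearer to control library 1 than to the other cold libraries. VIT_202s0025g04280 stood at 0.249, 0.420 and 0.751 FPKM in control and at 1.32, 1.06 and 0.521 FPKM in cold, and its groups overlapped. Its 17 control and 41 cold reads gave a pooled ratio of 2.01 (counting interval 1.12 to 3.78), and the interval reached below 1 without cold library 1 or 2. VIT_202s0025g04290 had 5, 4 and 2 reads in cold and none in control, at least 3.06-fold above the pooled floor, and at least 2.44-fold without cold library 1. VIT_202s0025g04250 had 1 read, in cold library 1.

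In 8 of the 10 members each cold library lay above each control library, the exceptions being g04250 and g04280. The same held for 26.4% of the 25054 genes with a value above 0. Since the array was proposed from this contrast, nothing is read from the count. The median of the 10 log2 changes, on the log2(FPKM + 1) scale, was 2.07, and over the 25054 genes it was 0.05. The scale understates changes of low genes. On it g04260, without a read in warm leaves, had a log2 change of 2.38, and g04270 had 5.37. With a pseudocount of 0.1 FPKM both were larger, at 5.42 and 8.29, and g04270 stayed well above g04260. Their cold means were 52.5 FPKM for g04270 and 4.39 FPKM for g04260.

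Genes entered the fit across all genes when their mean over the 6 libraries was at least 1 FPKM, which 7 of the 10 members reached. Of these 7, 6 had control means under 1 FPKM and entered through their cold levels, so they could hardly have entered without differing. All 7 were called higher by at least 2-fold (limma-trend, adjusted p under 0.05), beside 6.60% of 17155 tested genes. These calls were largely set by the choice of the members and the filter, and counts under other settings do not measure support. The log2 changes were 4.92 (SE 0.50) for g04230, 2.38 (SE 0.23) for g04260, 5.37 (SE 0.51) for g04270 and 3.95 (SE 0.51) for g04300. They were 4.99 (SE 0.53) for g04310, 1.18 (SE 0.21) for g04320 and 1.76 (SE 0.46) for g04330. The count fell to 3, namely g04260, g04310 and g04320, when limma-voom was run on the recovered reads. The fitted log2 changes of the 4 members not called there were larger than in the main comparison, at 9.31 for g04230, 9.30 for g04270, 7.20 for g04300 and 4.90 for g04330. The count was 6 when control library 2 or 3 or cold library 2 was left out, each time through the loss of g04330. It was 5 without cold library 1, where g04330 was not called and the log2 change of g04320 was 0.99.

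The members also made up different shares of the sum in the groups. In control, g04320 made up 83.1% ± 4.01 (SD, n = 3) of the summed FPKM, and g04310 made up 9.56% ± 3.24. In cold, g04310 made up 33.0% ± 4.64, g04270 23.7% ± 3.49, g04230 16.5% ± 3.71, g04320 12.9% ± 7.51 and g04300 8.91% ± 2.16 (SD, n = 3 each). These shares are of FPKM, and short genes weigh less by reads, where g04320 made up 69.7% in control and 6.83% in cold and g04310 18.8% and 40.4%. By FPKM, the share of g04320 was 79.9%, 81.6% and 87.6% in the control libraries and 17.2%, 4.27% and 17.4% in the cold libraries, with no overlap. Without g04320 the other 9 genes summed to 2.04, 1.42 and 1.42 FPKM in control and to 124, 366 and 83.1 FPKM in cold. The ratio of these means was 118, and 63.7 without cold library 2.

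**Figure D2:**
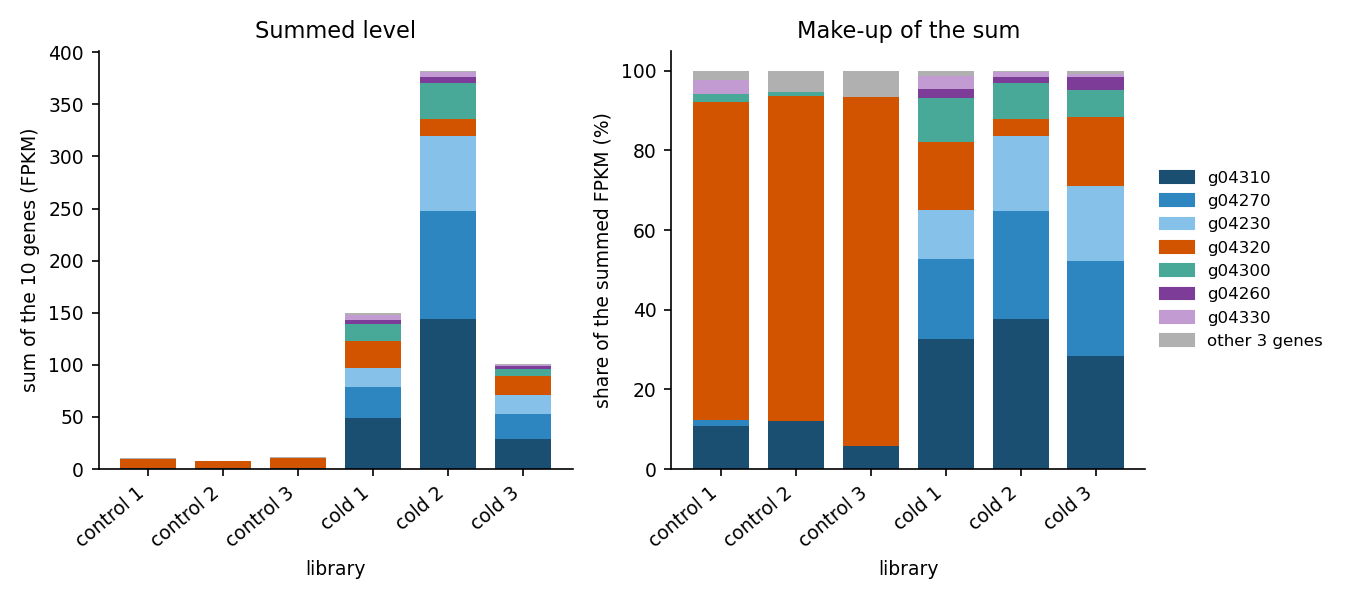
Stacked bars for each of the 6 libraries, with the summed FPKM of the 10 genes on the left and the share of each gene in that sum, in %, on the right; colours stand for the 7 genes that entered the fit and grey for the other 3. Control bars are short (7.72 to 11.5 FPKM) and mostly the orange of g04320, while cold bars are tall (101 to 382 FPKM) and mostly the blues of g04310, g04270 and g04230.

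Reads implied a length for each gene, which the choice of members did not use. The 10 lengths ran from 361 to 986 bases with a median of 719, and all were below the median of 1670 bases over all genes with reads. The shortest were g04290 with 361 and g04320 with 415 bases. The other 8 lay between 642 and 986 bases. The length of g04250 rests on its 1 read and is uncertain. That of g04290 rests on 5, 4 and 2 reads and is uncertain too, since a multiple of it would also make the reads whole. The read counts and floor of g04290 rest on the same choice. Both the annotation behind these lengths and the treatment of reads that match several near-identical copies were not given in the sources used here. Levels of single members are uncertain to the extent that such reads were shared or dropped within the array.

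The cold libraries differed in the array by more than in most of the transcriptome. The SD of log2(FPKM + 1) between the cold libraries was 1.09 for g04230, 1.11 for g04270, 1.10 for g04300 and 1.17 for g04310. Each of these 4 values was above that of 99.1% or more of the tested genes, whose median was 0.12. The SD was 0.34 for g04320, 0.44 for g04260 and 0.96 for g04330. These were above the values of 89.9%, 94.2% and 98.9% of the tested genes. Between control libraries, the SD of the 7 members ran from 0.00 to 0.30, beside a median of 0.15 over the tested genes.

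In 5 of the 10 members cold library 2 was the highest cold library, and for the other 5 it was cold library 1. The size of the difference was compared in a measure chosen after the values were seen. The level in cold library 2 was 3.81 times the next highest cold library for g04230, 3.44 times for g04270, 2.95 times for g04310, 2.10 times for g04300 and 1.86 times for g04260. It was below cold library 1 for g04320, at 0.636 times (counting interval 0.507 to 0.797), and for g04330 the ratio to cold library 1 was 0.892 (counting interval 0.641 to 1.24). Against cold library 1, the counting intervals of the 5 higher members all lay above 1, from 1.30 to 2.89 for g04260 and from 3.39 to 4.52 for g04230. Among the other 1126 genes called higher by at least 2-fold, cold library 2 was the highest cold library for 35.4%. It exceeded both other cold libraries at least 2-fold in 15 of those 1126 genes, or 1.33%, against 4 of the 7 members. The 15 genes include 0 on scaffold field 0025. Most of the 15, like the 4 members, had control means under 1 FPKM. Whether the members differed from other genes that were low in control and higher in cold was not tested. With 1 library behind this pattern, its cause was not tested.

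**Figure D3:**
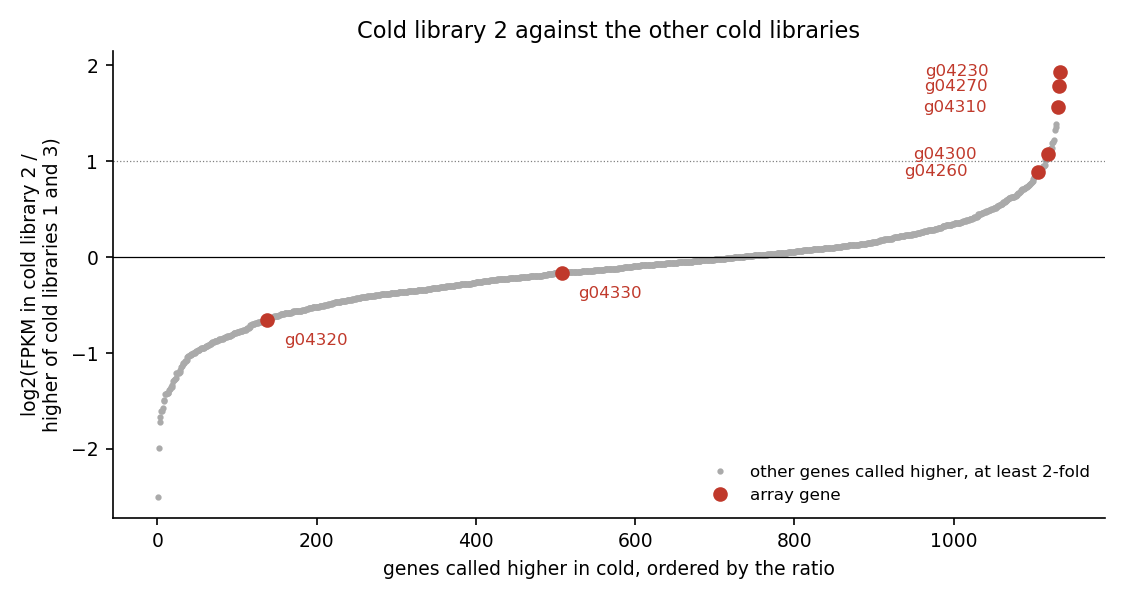
Each point is a gene called higher in cold by at least 2-fold, ordered along the horizontal axis by the log2 ratio of its FPKM in cold library 2 to the higher of cold libraries 1 and 3 (vertical axis); red points are the 7 array genes and grey points the other 1126. The array genes g04230, g04270 and g04310 stand at the upper end, g04300 also lies above the dotted line at a ratio of 2, and g04320 and g04330 lie below 0.

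The other cold libraries kept no common ratio across members either. Libraries 1 and 3 were nearly equal for g04230, at a ratio of 0.976 (counting interval 0.818 to 1.16), and for g04260, at 0.962 (0.615 to 1.498). Library 1 was above library 3 for g04310, at 1.71 (1.54 to 1.90), for g04300, at 2.45 (1.97 to 3.06), and for g04330, at 6.46 (3.63 to 12.3). Ratios between these were seen for g04270, at 1.25 (1.09 to 1.43), and for g04320, at 1.47 (1.18 to 1.82). Some intervals overlap, among them those of g04310 and g04320. Those of g04230 and g04300 do not overlap, nor do those of g04300 and g04330. These 3 members thus did not keep a shared ratio across the cold libraries within counting error. Whether that reflects the plants or the libraries was not tested.

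The identifiers around the array mostly changed little. Before it, VIT_202s0025g04210 averaged 12.4 ± 2.82 FPKM at 26 °C and 13.5 ± 1.80 FPKM at 4 °C (SD, n = 3 each), and VIT_202s0025g04220 stood under 2 FPKM in every library. Within it, VIT_202s0025g04240, which is not a member, was at 0 in all 6 libraries. After it, VIT_202s0025g04350 had means of 4.93 ± 0.184 and 4.85 ± 1.14 FPKM (SD, n = 3 each). The gene directly after the last member, VIT_202s0025g04340, was the exception.

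VIT_202s0025g04340 was the most abundant gene of this stretch in warm leaves. It stood at 38.1, 18.5 and 14.5 FPKM in control and at 41.0, 71.2 and 50.3 FPKM in cold, so that control library 1 came close to cold library 1. The log2 change was 1.24 (SE 0.36, limma-trend, adjusted p = 0.039), and every cold library was above every control library. Across 14 alternative settings the adjusted p ran from 0.0015 to 0.12 and passed the threshold in 6, so the call depended on the setting. It did not pass without control library 2 or 3 or without any 1 of the cold libraries. Its implied length was 969 bases. Read together with the 10 members it would bring the sum to 33.5 ± 12.8 FPKM in control and 265 ± 164 FPKM in cold (SD, n = 3 each).

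On the rest of scaffold field 0025, the share of genes called higher was close to that over all tested genes, and the share lower by at least 2-fold was larger, a difference that was not tested. Of 515 other identifiers 331 were tested, and 67 (20.2%) were higher and 51 (15.4%) lower in cold (limma-trend, adjusted p under 0.05). Over all tested genes the shares were 21.0% and 13.4%. At 2-fold or more, 19 (5.74%) were higher and 25 (7.55%) lower, beside 6.60% and 3.05% over all tested genes. The median log2 change was 0.09 on the scaffold field and 0.08 over all tested genes. VIT_202s0025g04460, chosen after its values were seen, lies beyond the array and was another of the 12 genes without a control read. In the order of the field's identifiers it was at 453, and the last member, g04330, at 439. Of the 12 genes, 4 were on scaffold field 0025, which holds 525 of the 31845 listed identifiers. Members make up 2 of these 4 and were picked from this contrast, so nothing is read from the count. The level of g04460 was 0 FPKM in control and averaged 18.6 FPKM in cold, a log2 change of 4.26 (SE 0.18). These values are a description only, since they led to its choice.

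**Figure D4:**
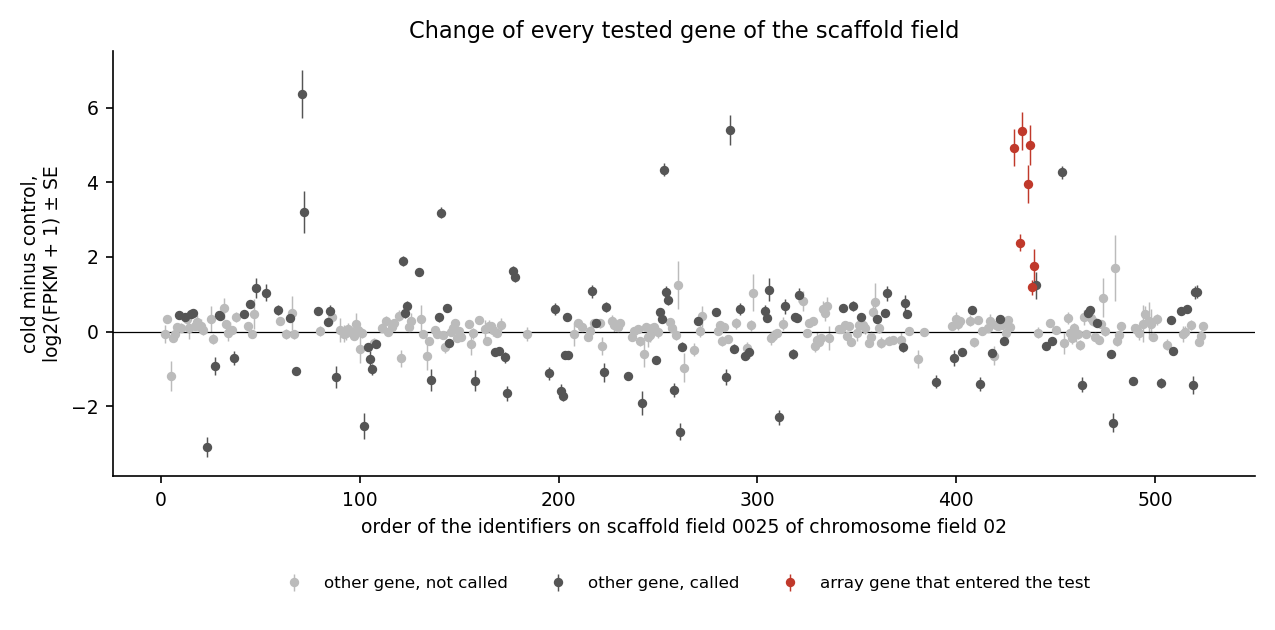
Log2 change from control to cold on the log2(FPKM + 1) scale, with its standard error, for the tested genes of scaffold field 0025 in the order of their identifiers; red points are the 7 array genes in the fit, dark points other genes called higher or lower and pale points genes not called. The array genes form a block of red points between 1.18 and 5.37, with most of the 331 other genes near 0. VIT_202s0025g00750 at 6.36 and VIT_202s0025g02805 at 5.39, elsewhere on the field, lie above every array gene.

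Other genes tracked the summed level of the array across the 6 libraries. On log2(FPKM + 1), the 5 non-member genes of 17148 with the highest Pearson correlation were VIT_209s0018g00735 (0.999), VIT_219s0014g05170 (0.999), VIT_200s0179g00370 (0.999), VIT_219s0014g05180 (0.998) and VIT_212s0034g01870 (0.997). These 5 reached at most a mean of 7.36 FPKM in cold, far under the array's sum. They share with the array the step between the groups as well as the library order, and the 6 points fall into 2 clusters, so the values serve only as a measure of likeness. For deviations from the group means, which remove that step, the first 5 were VIT_209s0018g00735 (0.993), VIT_204s0044g00640 (0.988), VIT_219s0014g05170 (0.988), VIT_216s0100g01220 (0.986) and VIT_204s0008g01360 (0.984). Correlations this high can also arise between unrelated genes when 17148 genes are compared over 6 libraries. This list too serves only as a measure of likeness. The lists share 2 genes. VIT_209s0018g00735, first in both, stood at 0.297, 0.140 and 0.378 FPKM in control and at 2.39, 3.86 and 2.00 FPKM in cold. VIT_204s0008g01360 had a lower mean in cold (3.96 ± 0.605 FPKM) than in control (5.05 ± 0.320 FPKM; SD, n = 3 each), so likeness of deviations did not require a higher level in cold.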

How the data were processed

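The authors deposited FPKM values per gene for 6 libraries as one table, with columns named as the sample titles. STAR, HTSeq, DESeq2, cutadapt and FastQC are listed, without roles or versions, per the submitters' processing notes; genome build, annotation, strand setting and multi-mapping rule were not given in the sources used here. Per the labels' protocols, libraries were made from total RNA with an Illumina TruSeq kit. No annotation of the identifiers was used, so lists by gene name had no members.

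The members and lists were chosen with earlier results of these data known. Named genes are the 10 members, and the identifiers within the array and 2 on each side. Also named are the 5 genes most correlated with the sum, by values and by deviations from group means. The genes g04460, g00750 and g02805 were added after their values were seen.

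Within each gene the FPKM values are whole multiples of 1 read. Whole reads, within 0.001, were found for 25054 of 25054 genes above 0, with library totals and gene lengths (the shortest length that made all reads whole). After random shifts of the values, 0 of 500 genes read in all libraries came out whole. The 500 were drawn from 20133 such genes. This check does not cover genes read in fewer libraries, as several members were. In simulated data 6 of 6 totals and 99.3% of genes with 10 or more reads throughout were recovered exactly. Intervals (95%, exact binomial) and the floor of 3 reads cover counting error only.

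The fit was limma-trend on log2(FPKM + 1) over the 17155 genes whose mean reached 1 FPKM; two-sided p-values were adjusted by the Benjamini-Hochberg method over all of them, at a threshold of 0.05. On simulated data for this comparison (17137 genes), 44 of 50 genes changed 2-fold and 49 of 49 changed 4-fold were called, as were 17 of 16941 unchanged genes. Every simulated gene had the same relative spread beyond counting error (dispersion 0.02). Several members varied more than that in cold, so these rates need not hold for them. Software was Python 3.11.15 (numpy 2.4.6, SciPy 1.17.1, pandas 2.3.3, matplotlib 3.10.9) and R 4.3.3 with limma 3.58.1. Alternatives were another pseudocount, other filters and scalings, limma-voom on recovered reads, library weights, a replicate block and leaving out each library.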

Additional observations from a re-analysis of the deposited data

How the results depend on the processing

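Depth limits the array mainly in warm leaves, where most members had from 0 to 5 reads per library, and the number of libraries limits it in cold, where 1 of 3 stood apart. The log2 change of the summed level was 4.08. It ran from 3.54 (without cold library 2) to 4.49 (without cold library 3) with 1 library left out, and from 3.95 (quantile normalization) to 4.68 (library weights) under the other settings; the sum does not depend on the filter. With limma-voom on recovered reads 3 members were called higher, 3 of them by at least 2-fold, against 7; the cause was not tested. Leaving out 1 library gave 6 to 7 members called, and 5 to 7 called at 2-fold or more, the lowest without cold library 1. Of 120 log2 changes of single members under alternatives 0 reversed. This was largely set in advance, since 4 members had no control read and all members were picked from this contrast. It is not used as support. With a pseudocount of 0.1 FPKM, which by construction enlarges changes of low genes, g04230 moved to 8.19 and g04270 to 8.29. By recovered reads in place of FPKM, g04310 made up 40.4% of the cold sum and 18.8% of the control sum, and g04320 6.83% and 69.7%. Other genes of scaffold field 0025 called higher numbered 44 to 81 and called lower 35 to 59 with 1 library left out, the lowest number of higher calls coming without cold library 2. Over all tested genes, 684 were higher at 2-fold when the filter was a mean of 5 FPKM and 844 lower with limma-voom. In the fit with a replicate block 7 members were called. Deviations from the group means correlated at -0.26, -0.13 and -0.28 between libraries of the same number. For 0 of 3 control libraries was the same-numbered cold library the closest. Pairing by number was thus not seen, though 3 libraries per group cannot exclude it.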
